A study of Mus musculus with 32 samples.

Results

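Fat cells given SCO together with TNF-alpha (TNF) were compared with fat cells given rosiglitazone (ROSI) together with TNF, gene by gene across all genes expressed highly enough to be tested. The 8 libraries of the comparison, 4 with SCO and TNF and 4 with ROSI and TNF, were taken by their treatment label from the 32 libraries of the study. All cells were 3T3-L1, an established mouse preadipocyte line, differentiated into adipocytes in culture, and every treatment lasted 24 h. The matching libraries without TNF were 4 with SCO alone and 4 with ROSI alone, and the vehicle libraries were 4 with DMSO and TNF and 4 with DMSO alone. The remaining libraries, 4 labelled CAP7 with TNF and 4 labelled CAP7 alone, entered the shared fit and thus its spread. Their own values are not reported here. ROSI is an agonist of the nuclear receptor PPARγ, and the design text of the series has it as the control for effects on PPARγ target genes. The labels leave SCO undefined, while the title of the series speaks of an extract of the plant Artemisia scoparia. No dose of SCO, ROSI or TNF is given in the sources used here, so the compounds are set side by side at unstated doses. Within a group the libraries are labelled as biological replicates, with no batch or day. Since nothing says that the replicates came from separate cultures, the p-values measure the spread between these libraries, which may be technical.

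PPARγ is the master regulator of fat cell differentiation. Agonists such as ROSI raise its target genes for fatty acid uptake, triglyceride storage, glycerol supply and mitochondrial oxidation. TNF works against this program in adipocytes, through NF-κB and other routes, and it also starts a slower interferon-type response through secreted interferon. NRF2 is a different transcription factor, which is set free by electrophiles and oxidants and turns on detoxification and antioxidant genes through the antioxidant response element in their promoters.

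Between SCO and ROSI with TNF, 828 of 14428 tested genes were higher with SCO (5.74% of those tested) and 1246 were lower (8.64%), by edgeR's quasi-likelihood test with a Benjamini-Hochberg adjusted p under 0.05, here termed called. Most differences were small: 143 called genes differed at least 2-fold, 50 of them higher and 93 lower with SCO. The median log2 difference over all tested genes, SCO minus ROSI, was -0.00028. In 2402 genes (16.6%) the 4 SCO libraries did not overlap the 4 ROSI libraries, and 1648 of these were called. The difference was bounded within 1.5-fold, by its 95% interval, for 8300 genes (57.5%), so for most genes the data limit how far the compounds can differ. The balance of directions depended on the scaling: higher genes were 39.9% of the calls with TMM scaling and 67.8% with library sizes alone, where the all-gene median moved to 0.085. The 8 libraries held 15.1 to 37.7 M counts each (M, 1e6 counts), against 11.3 to 37.7 M over all 32, and mitochondrially encoded genes took 10.2 to 13.2% of the counts. SCO and ROSI libraries separated along the first principal component of these 8, which held 26.6% of the variance. All 12 adipocyte markers were present and tested, while leukocyte and endothelial markers such as Ptprc, Adgre1, Cdh5 and Tek were at or near 0. Other members of those lists were detected. S100a8 averaged 111 CPM with SCO and 146 CPM with ROSI, Cd14 29.5 CPM with SCO and 23.7 CPM with ROSI, Des 15.2 CPM with SCO and 14.9 CPM with ROSI, and Cd68 6.12 CPM with SCO and 4.87 CPM with ROSI, and their part in the results was not tested. Summed over the list, adipocyte markers ran from 38536 to 47702 CPM with SCO and from 59077 to 72275 CPM with ROSI (CPM, counts per 1e6 counts of the TMM-scaled library), and preadipocyte and fibroblast markers from 2882 to 3497 CPM with SCO and from 3041 to 3401 CPM with ROSI. Most of the adipocyte sum was Fabp4, which averaged 26633 CPM with SCO and 42189 CPM with ROSI. Of the 12 adipocyte markers 9 were called lower, and Cfd, Pparg and Adrb3 were not called. In bulk RNA such as this, fewer cells of a kind and less RNA per cell cannot be told apart.

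**Figure D1:**
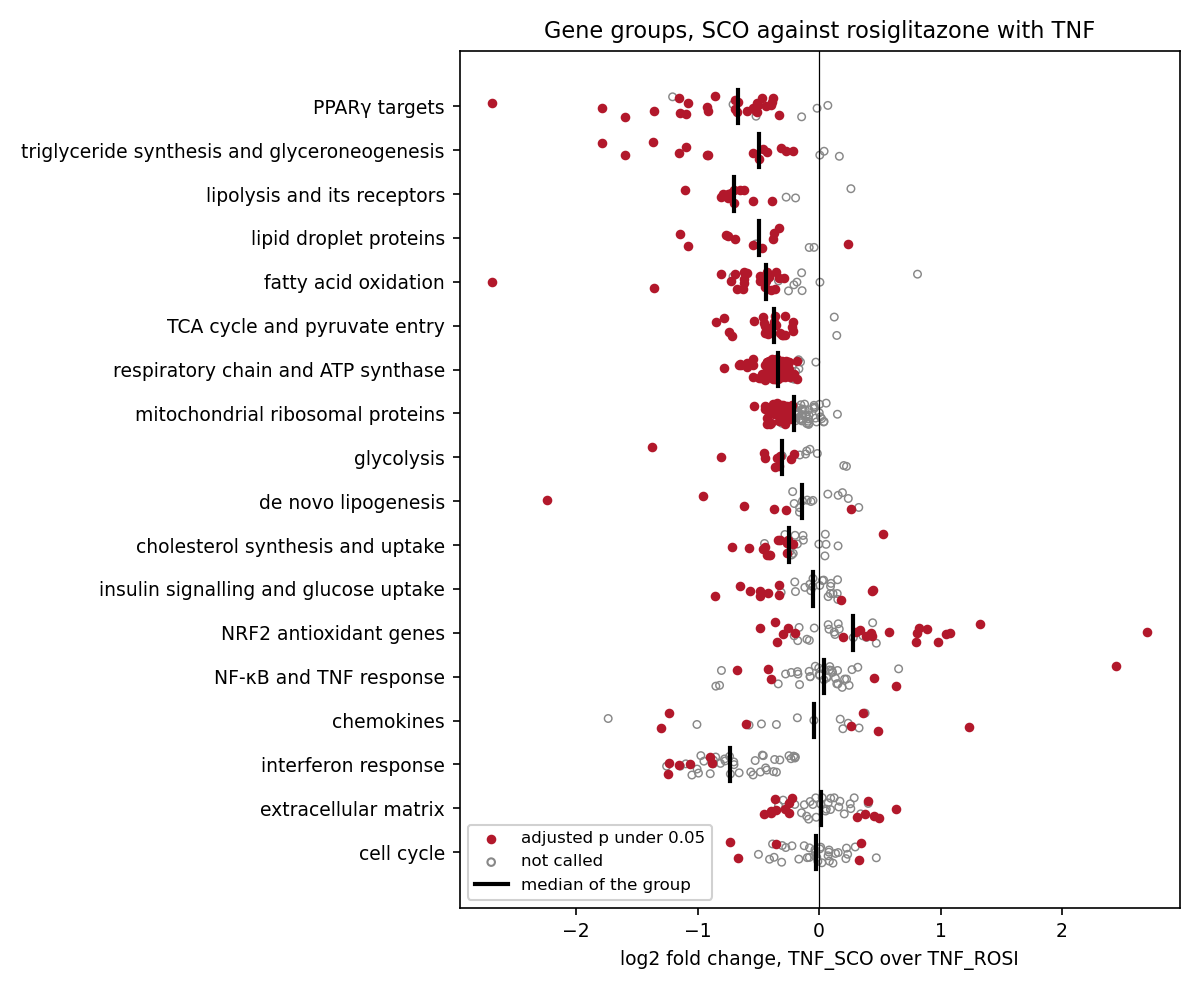
Each point is a tested gene of the group named on the left, placed by its log2 fold change of SCO over ROSI with TNF, filled where the adjusted p was under 0.05, and the black bar is the median of the group. The PPARγ, lipid and mitochondrial groups lie left of 0, NRF2 antioxidant genes lie mostly to the right with a median of 0.28, and NF-κB genes centre near 0 with a median of 0.04.

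PPARγ target genes had less RNA under SCO than under ROSI. Of 33 tested targets, 27 fell (81.8%, beside 8.64% of all genes) and none rose, with a median log2 difference of -0.66 and a range from -2.69 to 0.07. Both compounds had raised these genes over vehicle with TNF. With SCO 31 of the 33 were higher than in the vehicle libraries (13.2% of all genes were), with a median log2 difference of 1.29, and with ROSI 32 were (19.6% of all genes), with a median of 1.99. These vehicle comparisons use the same 4 libraries with DMSO and TNF, so their values are given side by side only. Several lists described here share genes with the PPARγ targets, and their counts are not separate results.

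The 12 largest decreases were picked among called genes without overlap whose mean was at least 16 CPM with SCO or with ROSI. Acaa1b and Gk reached that level with ROSI only. The largest decrease was that of Acaa1b, a peroxisomal thiolase of fatty acid oxidation. It was measured at 7.84, 5.26, 7.63 and 7.75 CPM with SCO, against 43.2, 32.7, 44.8 and 63.6 CPM with ROSI and 0.289 to 0.600 CPM with vehicle. The log2 difference of SCO from ROSI was -2.69 ± 0.21 (SE, n = 4 each, edgeR adjusted p = 5.8e-12). Pck1, which encodes the enzyme that starts glycerol synthesis from pyruvate in fat cells, had 64.4, 57.2, 57.0 and 70.8 CPM with SCO, against 226, 165, 204 and 266 CPM with ROSI and 2.92 to 4.84 CPM with vehicle. It fell by 1.79 ± 0.13 on the log2 scale. Gk, glycerol kinase, had 9.54, 12.4, 10.2 and 10.3 CPM with SCO, against 33.9, 26.4, 33.0 and 35.6 CPM with ROSI, a log2 difference of -1.60 ± 0.12. Every ROSI library was above every SCO library for all 3 genes, as the choice required. Clstn3, calsyntenin 3, had 19.8, 19.8, 21.4 and 22.7 CPM with SCO, against 55.9, 53.9, 67.9 and 60.1 CPM with ROSI and 1.94 to 2.97 CPM with vehicle, and the small GTPase gene Arl4a had 49.7, 53.1, 47.9 and 60.1 CPM with SCO, against 147, 134, 158 and 159 CPM with ROSI. Both fell by 1.51, with standard errors of 0.10 and 0.08. Arxes1 and Arxes2, adipocyte genes of near-identical sequence whose reads may be shared between them, differed by -1.60 ± 0.16 and -1.38 ± 0.09. Pfkfb3, whose enzyme sets fructose 2,6-bisphosphate, an activator of glycolysis, differed by -1.38 ± 0.12. Ifi27l2a (-1.55 ± 0.24), which belongs to a family of similar copies, and the unannotated gene Gm45716 (-1.39 ± 0.16) were also among the 12 largest decreases.

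Another of the large decreases was in a gene called over vehicle with ROSI and not with SCO. Noct, which encodes nocturnin, a phosphatase with rhythmic expression, had 10.0, 16.1, 9.34 and 13 CPM with SCO, against 35.0, 29.9, 36.9 and 31.4 CPM with ROSI and 9.39 to 11 CPM with vehicle. Its log2 difference from vehicle was 0.28 with SCO (edgeR adjusted p = 0.16) and 1.75 with ROSI, and the difference of SCO from ROSI was -1.47 ± 0.13.

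**Figure D2:**
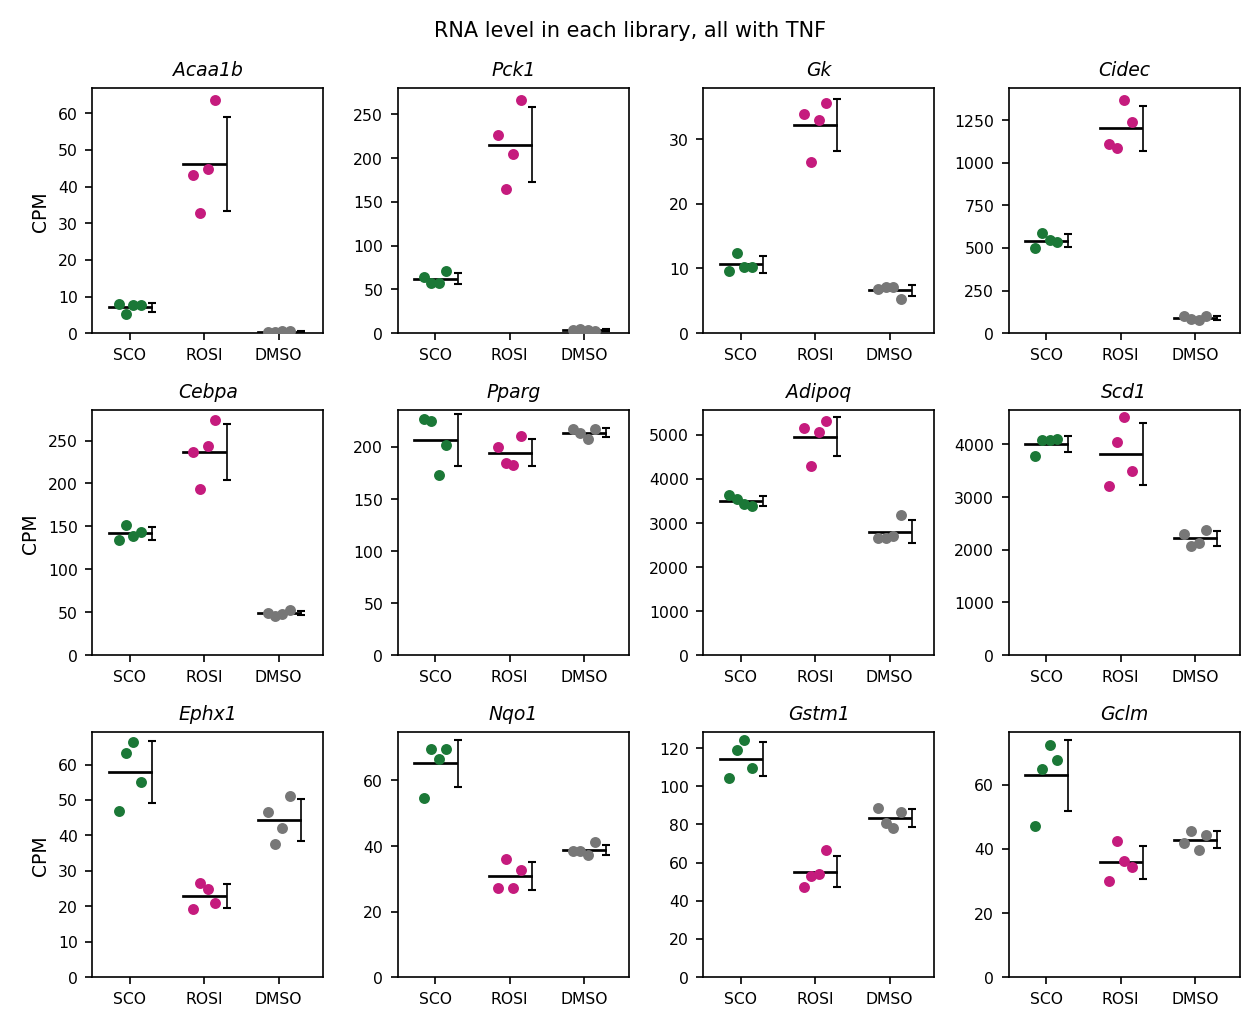
CPM in each of the 4 libraries of a group for 12 genes, with SCO, ROSI and DMSO from left to right, all with TNF; black bars are means and error bars SDs. Acaa1b, Pck1, Gk, Cidec and Cebpa stand lower with SCO than with ROSI in every library, Pparg and Scd1 overlap, and Ephx1, Nqo1, Gstm1 and Gclm stand higher with SCO.

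Genes of triglyceride synthesis, lipid droplets and lipolysis fell together. Of 17 tested genes of triglyceride synthesis and glyceroneogenesis, 14 fell and none rose (median -0.50), and of 15 genes of lipolysis and its receptors, 12 fell and none rose (median -0.70). Over all tested genes 8.64% were called lower. Gpat3, a glycerol-3-phosphate acyltransferase, had 24.4, 32.7, 30.4 and 27.5 CPM with SCO, against 68.2, 64.5, 84.6 and 79.1 CPM with ROSI, a log2 difference of -1.37 ± 0.09. Gpd1, which makes glycerol 3-phosphate, had 656, 746, 707 and 794 CPM with SCO, against 1557, 1297, 1796 and 1790 CPM with ROSI (-1.15 ± 0.09). The acyltransferase gene Agpat2 (-1.09 ± 0.09) moved the same way. Among 14 lipid droplet genes 10 fell and 1 rose. Cidec, which joins small droplets into large ones, had 497, 590, 548 and 533 CPM with SCO, against 1109, 1087, 1371 and 1239 CPM with ROSI and 77.3 to 101 CPM with vehicle, with no overlap (-1.15 ± 0.08). The droplet coat genes Plin1 and Plin2 differed less, by -0.38 ± 0.06 and -0.47 ± 0.07. Lipolysis genes that fell were Hcar2, the receptor for niacin and ketone bodies that restrains lipolysis (-1.10 ± 0.11), the lipases Pnpla2 (-0.55 ± 0.07) and Lipe (-0.39 ± 0.08), the lipase coactivator Abhd5 (-0.70 ± 0.07), the lipase inhibitor G0s2 (-0.75 ± 0.09), the short-chain fatty acid receptor Ffar2 (-0.75 ± 0.07) and the phosphodiesterase Pde3b (-0.65 ± 0.08). They thus held genes that drive lipolysis and genes that hold it back. The receptor Adrb3, through which catecholamines start lipolysis, was not called (0.26 ± 0.13), with 23.3, 21.2, 19.2 and 19.2 CPM with SCO and 17.6, 14.8, 13.3 and 24.4 CPM with ROSI. The fatty acid carriers Cd36 (-0.52 ± 0.06) and Fabp4 (-0.66 ± 0.10) fell as well, the last with 25888, 28986, 22555 and 29105 CPM with SCO, against 42406, 38783, 39825 and 47743 CPM with ROSI.

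Nuclear genes for mitochondrial oxidation fell with small sizes and in large numbers. Of 34 tested genes of fatty acid oxidation, 25 fell and none rose (median -0.44), where 8.64% of all genes were called lower. Of 25 genes of the TCA cycle and pyruvate entry, 23 fell (median -0.37), and of 78 subunits of the respiratory chain and ATP synthase, 69 fell (median -0.34). All 78 of these had a negative log2 difference, from -0.78 to -0.03. The count of 69 was 54 with library sizes alone or without TNF_SCO library 3. Mitochondrial ribosomal proteins differed less, with 31 of 78 lower and a median of -0.21. The count of 31 was 23 with library sizes alone and ran from 21 to 38 when 1 library was left out. Idh3a, a subunit of the isocitrate dehydrogenase of the cycle, had 160, 187, 170 and 202 CPM with SCO, against 297, 292, 357 and 347 CPM with ROSI (-0.85 ± 0.07). Cs, citrate synthase, had 316, 356, 277 and 317 CPM with SCO, against 515, 486, 541 and 579 CPM with ROSI (-0.74 ± 0.07). Neither gene's groups overlapped. Pdk4, which holds pyruvate back from the cycle, had 22.8, 31.0, 22.8 and 20.8 CPM with SCO, against 52.8, 69.6, 61.4 and 65.7 CPM with ROSI (-1.36 ± 0.14). The oxidation genes Acadm (-0.62 ± 0.06) and Etfb (-0.68 ± 0.07) and the coactivators Ppargc1a (-0.64 ± 0.14) and Ppargc1b (-0.67 ± 0.11), which promote mitochondrial gene expression, also fell. The respiratory subunits Ndufb10 (-0.65 ± 0.09), Atp5g1 (-0.64 ± 0.08) and Atp5o (-0.55 ± 0.07) were among the called members with the lowest p. Against the shared vehicle libraries, the median log2 difference of the 78 subunits was 0.37 with SCO and 0.72 with ROSI. Of 25 genes of branched-chain amino acid breakdown 12 fell and 1 rose, the last a call lost with only the libraries compared and without TNF_ROSI library 1 or 2 or TNF_SCO library 3, with Bckdhb (-0.73 ± 0.09) and Dbt (-0.58 ± 0.10), subunits of the branched-chain ketoacid dehydrogenase, among those lower. Of 15 tested brown and beige adipocyte genes 8 fell and none rose, among them the fatty acid elongase Elovl3, which was low at 0.359 to 1.54 CPM with SCO and 2.42 to 4.61 CPM with ROSI (-2.24 ± 0.34). Ucp1, the uncoupling protein of brown fat, had 1 read in the 8 libraries together and was not tested.

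Sugar and sterol genes showed a mixed picture, where 5.74% of all genes were called higher and 8.64% lower. In glycolysis 10 of 19 tested genes fell and none rose (median -0.31), among them Ldhb (-0.80 ± 0.10), Ldha (-0.44 ± 0.07), Pfkl (-0.35 ± 0.05) and Aldoa (-0.33 ± 0.06). In insulin signalling and glucose uptake 8 of 30 genes fell and 3 rose. Irs2, an insulin receptor substrate (-0.48 ± 0.07), and Slc2a4, the insulin-responsive glucose transporter (-0.42 ± 0.10), were among those lower. The 3 genes that rose were 6 with library sizes alone and 1 without TNF_ROSI library 1 or 4 or without TNF_SCO library 2 or 3. De novo lipogenesis had 5 of 19 genes lower and 1 higher, with a median of -0.14, and 2 were higher with DESeq2, with library sizes alone or without TNF_ROSI library 4 or TNF_SCO library 1 or 3. Its central enzymes Scd1 and Fasn were not called. Scd1, the desaturase, had 3787, 4080, 4082 and 4108 CPM with SCO and 3206, 4054, 4521 and 3492 CPM with ROSI, a log2 difference of 0.07 (95% interval -0.10 to 0.24), and Fasn, fatty acid synthase, differed by -0.16 (-0.40 to 0.07). Thrsp, a lipogenic regulator, was lower with SCO (-0.96 ± 0.15). Of 28 cholesterol genes 13 fell and 1 rose, among them Hmgcs1 (-0.41 ± 0.07), Nsdhl (-0.44 ± 0.06) and the lipoprotein receptor Scarb1 (-0.72 ± 0.07).

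Pparg itself was not called between the compounds. It had 227, 225, 173 and 202 CPM with SCO, 200, 185, 183 and 210 CPM with ROSI and 207 to 217 CPM with vehicle, and the SCO and ROSI libraries overlapped. The log2 difference was 0.09 with a 95% interval of -0.07 to 0.25. Cebpa, its partner factor in adipocytes, had 134, 151, 139 and 143 CPM with SCO, against 236, 194, 244 and 274 CPM with ROSI and 45.8 to 52.5 CPM with vehicle (-0.74 ± 0.08; edgeR adjusted p = 1.9e-08). Of 20 tested adipogenic transcription factors and coregulators 6 fell (30%, beside 8.64% of all genes) and none rose. The 6 were 3 with library sizes alone or without TNF_SCO library 3. Among 12 adipokine genes 6 fell and none rose. Adipoq, adiponectin, had 3639, 3555, 3439 and 3376 CPM with SCO, against 5159, 4301, 5078 and 5307 CPM with ROSI (-0.50 ± 0.07), with no overlap. Apelin, Apln (-0.60 ± 0.08), the neuregulin Nrg4 (-0.63 ± 0.13) and Retn, resistin (-0.46 ± 0.11), were lower too. Cfd, adipsin, had 6446, 7127, 5215 and 6699 CPM with SCO and 6932, 6783, 5177 and 6860 CPM with ROSI, and its difference of -0.01 was bounded by -0.20 and 0.17. Lep, leptin, had 2 reads in the 8 libraries and was not tested.

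In the other direction, NRF2 antioxidant genes were higher with SCO. Of 39 tested members 16 rose and 6 fell, with a median log2 difference of 0.28 beside -0.00028 over all genes. The share called in either direction was 56.4%, beside 14.4% of all genes. Ephx1, microsomal epoxide hydrolase, had 46.8, 63.2, 66.4 and 55.2 CPM with SCO, against 19.3, 26.7, 25 and 20.9 CPM with ROSI and 37.6 to 51 CPM with vehicle. It differed by 1.33 ± 0.12 (edgeR adjusted p = 2.4e-10). Nqo1, the quinone reductase often used as a readout of NRF2, had 54.7, 69.7, 66.7 and 69.7 CPM with SCO, against 27.3, 36.0, 27.2 and 32.6 CPM with ROSI and 37.2 to 41.1 CPM with vehicle (1.08 ± 0.11). Here all SCO libraries were above all vehicle libraries, and all ROSI libraries below them. Gclm, the regulatory subunit of glutathione synthesis, had 47.0, 64.9, 72.5 and 67.7 CPM with SCO, against 30.1, 42.6, 36.3 and 34.4 CPM with ROSI (0.81 ± 0.11). Hmox1, heme oxygenase, was more variable, at 186, 295, 254 and 244 CPM with SCO and 95.6, 178, 132 and 89.6 CPM with ROSI (0.98 ± 0.20). Blvrb, biliverdin reductase, had 80.8, 106, 106 and 111 CPM with SCO, against 57.4, 62.2, 54.8 and 53.5 CPM with ROSI (0.82 ± 0.08). The glutathione transferase genes Gstm1 (1.05 ± 0.08), Gstm2 (0.79 ± 0.07) and Gsta3 (6.50-fold, log2 SE 0.35) rose, with reads that similar copies in their families may share. Gsta3 was low, at 3.83, 7.46, 4.31 and 7.33 CPM with SCO and 0.760, 1.82, 0.525 and 0.375 CPM with ROSI. Gsta3 and Txnrd1, thioredoxin reductase (0.42 ± 0.09), were chosen after their values were seen, since their promoters are shown. The count of 16 ran from 14 to 19 when 1 library was left out and was 22 with library sizes alone.

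**Figure D3:**
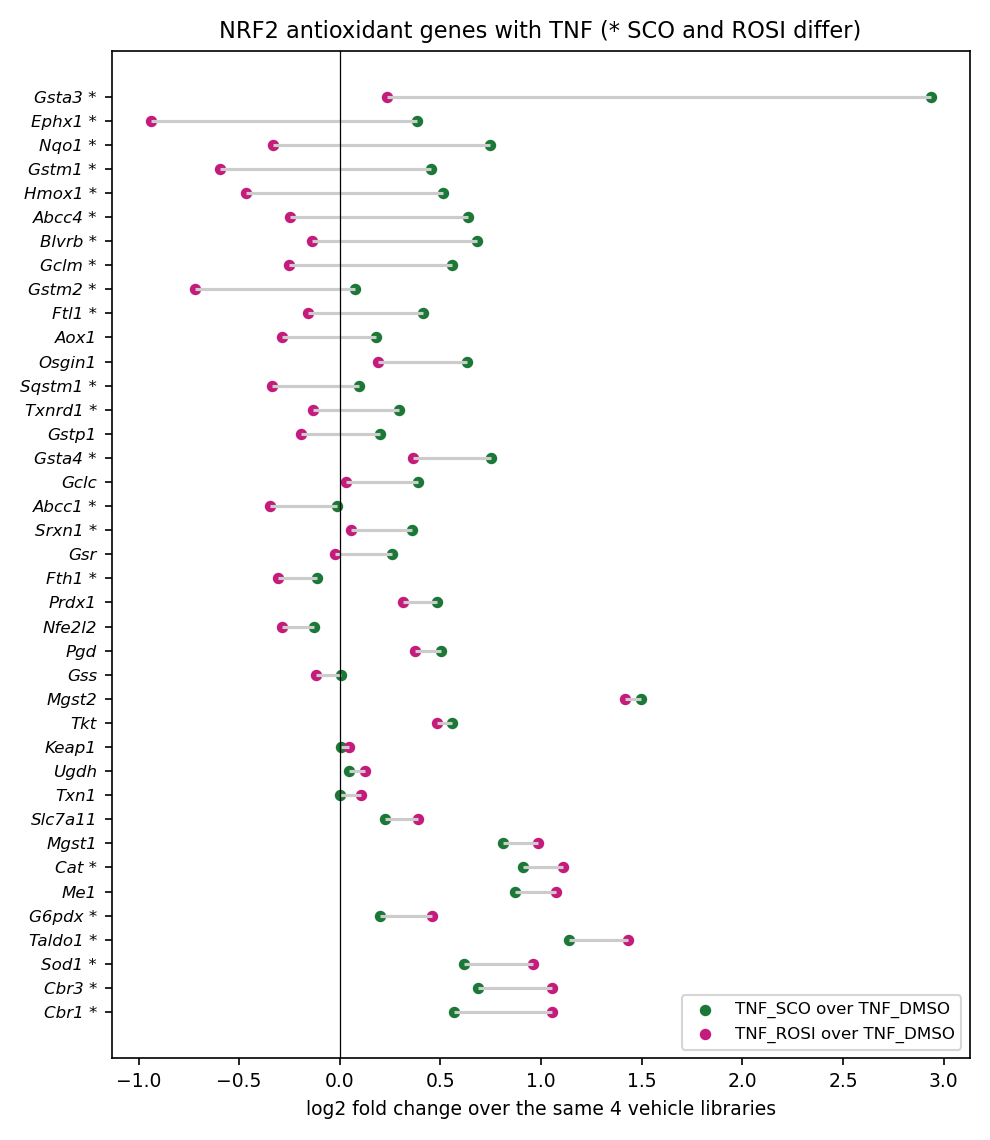
Log2 fold change of each tested NRF2 antioxidant gene over the same 4 vehicle libraries with TNF, for SCO (green) and for ROSI (pink), with genes ordered by the difference of SCO from ROSI and an asterisk where that difference was called. Gsta3 at the top has the widest gap between the compounds (6.50-fold), and 16 starred genes lie toward the SCO side and 6 toward the ROSI side.

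The antioxidant response element is shown where it lies near the start of an NRF2 gene. Its core, TGACNNNGC on either strand, was present within the 250 bases before a start in 10 of 34 tested NRF2 genes with a promoter entry (29.4%), against 13.9% of 10060 tested genes and 10.2% of all promoters in the table. The core was also present in 7 of 31 tested interferon response genes (22.6%) and in 2 of 24 PPARγ targets (8.33%). Over all genes it was as frequent among those called higher with SCO (14%) as among those called lower (13.9%). The stretches below, from RefSeq with coordinates of GRCm38.p6, are read along the gene's strand with the core in capitals. They lie before the starts of Gclm (chr3:122245403-122245451, plus strand), Txnrd1 (chr10:82859094-82859142, plus strand) and Gsta3 (chr1:21240444-21240492, plus strand). Of the 10 genes with the core 4 were called higher with SCO, 2 were called lower (Sod1 and G6pdx) and 4 were not called, and the 3 shown are from those that were higher. In Gclm and Txnrd1 the match is on the opposite strand.
Gclm: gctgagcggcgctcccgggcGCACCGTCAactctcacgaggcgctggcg
Txnrd1: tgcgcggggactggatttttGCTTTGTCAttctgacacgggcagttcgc
Gsta3: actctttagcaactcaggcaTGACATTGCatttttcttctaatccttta

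A further search for the PPARγ element, a pair of AGGTCA repeats with 1 base between them on either strand, found it before none of 24 PPARγ targets and in 0.0335% of all promoters in the table. Its absence says only that these letters were not in the window.

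Some genes went opposite ways from vehicle under the compounds. A rule asked for calls in both directions and at least 16 CPM, and the list it gave was capped in length. Of the genes on this capped list, 7 were higher with SCO than with ROSI. How many genes met the rule without the cap is not given here, so the balance of directions holds for the capped list only. Ephx1 differed from vehicle by 0.38 with SCO and -0.94 with ROSI, Nqo1 by 0.75 with SCO and -0.33 with ROSI, and Gstm1 by 0.45 with SCO and -0.59 with ROSI. The heme transporter Slc48a1 had 935, 1076, 1182 and 1079 CPM with SCO, against 633, 674, 640 and 621 CPM with ROSI and 818 to 938 CPM with vehicle. The lysosomal glycoprotein Creg1 differed from vehicle by 0.30 with SCO and -0.34 with ROSI, the membrane protein gene Tmtc4 by 0.38 with SCO and -0.45 with ROSI, and the transcription factor Tshz1 by 0.28 with SCO and -0.20 with ROSI. Col4a1, a basement membrane collagen, was the reverse case on the capped list, with -0.20 for SCO and 0.19 for ROSI. All of these share the vehicle libraries, so the pairs are descriptions. The 6 NRF2 list members that fell in SCO against ROSI were Cbr1 (-0.49), Cbr3 (-0.36), Sod1 (-0.35), Taldo1 (-0.30), G6pdx (-0.26) and Cat (-0.20), which include enzymes of carbonyl reduction, the pentose phosphate pathway and peroxide removal.

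The other large increases, picked like the decreases among called genes without overlap, covered secreted and membrane proteins. The chemokine gene Ccl6 had 59.8, 55.2, 63.2 and 52.7 CPM with SCO, against 21.5, 32.8, 21.1 and 22.7 CPM with ROSI, while vehicle libraries held 98.9 to 149 CPM (1.24 ± 0.12). Camp, the antimicrobial peptide cathelicidin, had 16.8, 15.8, 15.9 and 15.6 CPM with SCO, against 7.88, 8.41, 5.91 and 6.11 CPM with ROSI and 33.1 to 41.7 CPM with vehicle (1.19 ± 0.18). For both genes SCO lay between ROSI and vehicle. Prl2c2, proliferin, was instead above vehicle, at 17.9, 21.0, 20.9 and 23.7 CPM with SCO, 10.7, 7.59, 12.6 and 8.04 CPM with ROSI and 6.14 to 8.50 CPM with vehicle (1.09 ± 0.18). Il1rl1, the receptor for interleukin 33, had 85.6, 70.4, 94.1 and 79.7 CPM with SCO, against 54.1, 47.8, 34.2 and 32 CPM with ROSI (0.98 ± 0.12). The lysophospholipase gene Gdpd1 (0.88 ± 0.09), the endocytic recycling gene Ehd3 (0.88 ± 0.12) and the exporter Abcc4 (0.89 ± 0.18) complete the increases with the small nucleolar RNA Snord89 (1.45 ± 0.36). Snord89 was called by an edgeR adjusted p of 0.0042, which was 0.0533 without TNF_SCO library 3.

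Primary TNF response genes were called between the compounds about as often as genes in general. Of 41 tested NF-κB and TNF response genes, 39 were raised by TNF in vehicle cells (26.7% of all genes were), and between SCO and ROSI 3 rose and 3 fell (14.6% called, beside 14.4% of all genes in either direction), with a median of 0.04. Mmp3, stromelysin, had 820, 710, 891 and 770 CPM with SCO, against 583, 607, 450 and 413 CPM with ROSI (0.64 ± 0.13). Steap4, a metalloreductase (-0.68 ± 0.12), Sod2, mitochondrial superoxide dismutase (-0.39 ± 0.06), and Zc3h12a, a nuclease that degrades cytokine mRNA (-0.42 ± 0.13), were lower with SCO. The Zc3h12a call was lost with library sizes alone (edgeR adjusted p = 0.063) and without TNF_ROSI library 1 or 4 or TNF_SCO library 1, 3 or 4 (0.0568 to 0.127). Tnip3 (2.44 ± 0.77) stayed under 1 CPM in each of the 8 libraries, and its call was lost without TNF_SCO library 3 or any single TNF_ROSI library (edgeR adjusted p 0.0508 to 0.119) and with no filter (0.0773). The count that fell was 5 with limma-voom. The count of 3 that rose was 11 with library sizes alone, 7 with limma-voom, 5 with no filter, without mitochondrially encoded genes or without TNF_SCO library 2 or 4, and 1 without TNF_ROSI library 3 or 4 or TNF_SCO library 3. Several key genes were bounded. Nfkbia, the NF-κB inhibitor, differed by 0.15 (95% interval 0.01 to 0.28) and was not called, Cxcl1 by -0.04 (-0.26 to 0.17), and the acute phase gene Saa3 by -0.02 (-0.28 to 0.25). Ccl2, a monocyte chemokine, had 1680, 1333, 1480 and 1176 CPM with SCO and 1398, 1194, 1002 and 1210 CPM with ROSI, which overlap (0.24, interval -0.01 to 0.49). Both compounds lay below the 2228 to 2486 CPM of the vehicle libraries. Il6 was low, at 2.23, 1.75, 1.64 and 0.651 CPM with SCO and 2.77, 3.47, 3.40 and 1.82 CPM with ROSI, and its difference of -0.85 was wide (-1.60 to -0.10) and not called.

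Among 19 chemokines 4 rose and 3 fell, and the acute phase and complement list had 1 of 25 genes higher and 4 lower. The called shares were 36.8% for chemokines and 20% for the acute phase list, beside 14.4% of all genes. The chemokine count that rose was 2 without TNF_ROSI library 3 or 4 or TNF_SCO library 1, and the count that fell was 1 with DESeq2. Cxcl5, a neutrophil chemokine, had 279, 219, 235 and 229 CPM with SCO, against 422, 393, 302 and 341 CPM with ROSI (-0.60 ± 0.10). Cx3cl1, fractalkine, was higher (0.48 ± 0.13). The complement factor gene Cfb had 1139, 1169, 972 and 1137 CPM with SCO, against 1865, 1538, 1369 and 1821 CPM with ROSI, and the heme carrier Hpx had 953, 935, 973 and 910 CPM with SCO, against 1719, 1772, 1379 and 1431 CPM with ROSI. These differed by -0.58 ± 0.10 and -0.74 ± 0.10. Haptoglobin, Hp, fell by 0.39 ± 0.08 on the log2 scale, and Lbp, which binds bacterial lipopolysaccharide, by 0.57 ± 0.15. Serpina3c, a protease inhibitor, was higher (0.45 ± 0.13), and its call was lost without TNF_ROSI library 2 or 3 or TNF_SCO library 1 (edgeR adjusted p 0.056 to 0.0693).

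Interferon response genes were lower with SCO on average in every tested member, but with wide spread. All 43 tested members had a negative log2 difference, from -1.26 to -0.20 with a median of -0.74, and 6 of the 43 were called (14.0%, beside 8.64% of all genes called lower). The SCO and ROSI libraries failed to overlap in 1 of the 43, beside 16.6% of all tested genes. Cxcl10, an interferon-induced chemokine, had 180, 53.5, 92.2 and 90.0 CPM with SCO, against 336, 192, 119 and 335 CPM with ROSI (-1.23 ± 0.28; edgeR adjusted p = 0.0018), and its call was lost with DESeq2 (adjusted p = 0.186). Ifit1, an antiviral effector, had 141, 43.2, 98.4 and 85.7 CPM with SCO, against 252, 170, 113 and 282 CPM with ROSI, and Isg15, a ubiquitin-like modifier, had 206, 68.7, 135 and 114 CPM with SCO, against 429, 305, 176 and 346 CPM with ROSI. In these genes library 1 was the highest of SCO and library 3 the lowest of ROSI, and neither was called (edgeR adjusted p = 0.086 for Ifit1 and 0.061 for Isg15, which was chosen after its values were seen). Other calls were Usp18 (-1.24), Zbp1 (-0.89), Irf7 (-1.06) and Ifit3b (-1.15), the last chosen after its values were seen and near-identical to Ifit3. The call of Ifit3b was lost with DESeq2 and without TNF_ROSI library 1 or 4 or TNF_SCO library 2, 3 or 4 (adjusted p 0.0974 to 0.136), and the calls of Usp18, Zbp1 and Irf7 likewise (0.0549 to 0.308), except that Usp18 kept its call without TNF_SCO library 3.

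Summed over the list, interferon response RNA was 2901, 1459, 2272 and 1902 CPM with SCO, against 4405, 3474, 2209 and 4116 CPM with ROSI and 3543, 3561, 4046 and 5502 CPM with vehicle. ROSI library 3 lay below SCO libraries 1 and 3, so the sums overlapped, and the SCO sums all lay below the vehicle sums. Against the shared vehicle libraries, 25 of the 43 were lower with SCO (8.09% of all genes), with a median of -0.99, and 3 were lower with ROSI (16.3% of all genes), with a median of -0.28. TNF had raised all 43 in vehicle cells. The count of 6 changed with the method. It was 1 with DESeq2, 15 with limma-voom, 21 with only the 8 libraries fitted and 33 with no filter. It was 2 without TNF_ROSI library 1 or 4 or TNF_SCO library 2 or 4, and 3 without TNF_SCO library 3. Of 20 MHC class I presentation genes 4 fell (20%, beside 8.64% of all genes) and none rose, among them H2-D1 (-0.45 ± 0.10) and the proteasome activator Psme2 (-0.54 ± 0.10). This count was 2 without TNF_SCO library 4, 8 without TNF_ROSI library 3, 7 with limma-voom or only the 8 libraries fitted, and 10 with no filter.

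**Figure D4:**
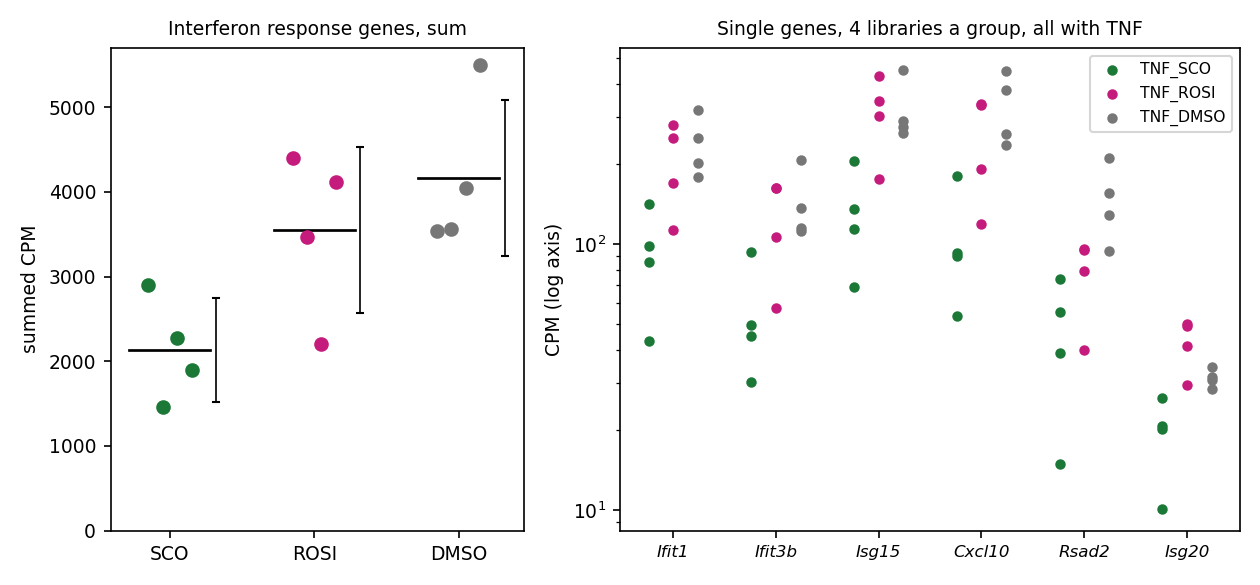
Left, CPM summed over the 43 interferon response genes in each library with SCO, ROSI or DMSO, all with TNF, with bars for means and error bars for SDs. Right, CPM on a log axis in the 4 libraries of each group for 6 genes, where SCO points lie low but overlap the ROSI points except for Isg20, which is not among the 43.

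The interferon-stimulated response element, a pair of GAAA runs with 2 bases between them on either strand, was present within 250 bases before the start in 18 of 31 tested interferon response genes with a promoter entry (58.1%), of which 2 were called lower and 16 not called. It was present in 3.22% of 10060 tested genes, in 4.26% of those called lower with SCO and in 2.21% of those called higher, and in 2.98% of all promoters in the table. The stretches below come from RefSeq with GRCm38.p6 coordinates, with each match in capitals, and show genes whose libraries are given above. They lie before the starts of Cxcl10 (chr5:92349073-92349122, minus strand), Isg15 (chr4:156200855-156200916, minus strand, with 3 overlapping matches) and Ifit1 (chr19:34640765-34640833, plus strand, with 2 matches on the opposite strand).
Cxcl10: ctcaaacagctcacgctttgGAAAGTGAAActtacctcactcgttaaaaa
Isg15: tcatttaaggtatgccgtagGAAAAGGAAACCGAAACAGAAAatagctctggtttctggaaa
Ifit1: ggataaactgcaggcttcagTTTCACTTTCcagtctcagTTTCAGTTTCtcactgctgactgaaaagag

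Matrix, contractile, growth and stress genes were compared next. Of 43 extracellular matrix genes 6 rose and 9 fell (median 0.01), and with library sizes alone 10 rose and 5 fell. In the main fit 34.9% of them were called, beside 14.4% of all genes. The collagens Col4a1 (-0.39 ± 0.06) and Col6a2 (-0.40 ± 0.07) and the laminin Lamb1 (-0.45 ± 0.07) were lower, and the aggrecanase Adamts5 (0.49 ± 0.09) was higher. Col1a1 (-0.28) and Col3a1 (-0.25), the fibrillar collagens, were called by small margins. With library sizes alone their edgeR adjusted p was 0.132 for Col1a1 and 0.181 for Col3a1. Both calls were also lost with only the libraries compared. Without TNF_ROSI library 1 or 4 or TNF_SCO library 3 or 4 both were lost, and that of Col1a1 also without TNF_SCO library 2 (edgeR adjusted p 0.0588 to 0.246). Of 21 contractile genes 4 rose and 2 fell, and the 4 were 2 without TNF_ROSI library 4 or TNF_SCO library 1. Tpm1, tropomyosin, had 231, 200, 219 and 222 CPM with SCO, against 167, 161, 168 and 161 CPM with ROSI (0.41 ± 0.06). Gas6, a ligand of the TAM receptors, had 59.5, 46.8, 55.4 and 52.1 CPM with SCO, against 32.9, 33.5, 31.3 and 26.9 CPM with ROSI (0.78 ± 0.10). Of 38 cell cycle genes 2 rose and 3 fell, 13.2% beside 14.4% of all genes. The mitotic kinase gene Plk1 was lower (-0.67 ± 0.15). Their counts were 1 higher and 1 lower without TNF_SCO library 3, 1 lower without TNF_SCO library 4, and 5 higher with library sizes alone and 4 with limma-voom. Of 29 unfolded protein and amino acid stress genes 7 fell and 1 rose, the last a call that was lost without TNF_ROSI library 1 or 4 or TNF_SCO library 2, 3 or 4. Dnajb9, a chaperone of the endoplasmic reticulum, had 108, 114, 108 and 108 CPM with SCO, against 206, 216, 211 and 202 CPM with ROSI (-0.93 ± 0.06). In the growth hormone and IGF axis 5 of 14 genes rose and 1 fell (Igf1, -0.30 ± 0.08, not called without TNF_ROSI library 4 or TNF_SCO library 3), with Igf1r (0.44 ± 0.11), Igfbp4 (0.31 ± 0.07) and Socs2 (0.36 ± 0.09) among those higher.

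The same pair of compounds was compared without TNF on other libraries. There 1066 genes were higher with SCO than with ROSI (7.39%) and 1058 lower (7.33%). Of the 828 genes higher with SCO under TNF, 353 were also called higher without TNF, which is 42.6% of the first list and 33.1% of the second. Of the 1246 genes lower under TNF, 573 were also called lower without TNF, which is 46.0% of the first list and 54.2% of the second. The sign was the same without TNF for 743 of the 828 and 1098 of the 1246, and 4 and 10 were called in the opposite direction. Of the PPARγ targets 21 of 33 were lower and 1 higher without TNF, and of the respiratory chain genes 43 of 78 were lower. NRF2 antioxidant genes were alike in number, with 15 of 39 higher and 5 lower. Interferon genes were at low levels without TNF, with list sums of 245 to 494 CPM with SCO and 301 to 985 CPM with ROSI, and 2 of 43 were lower.

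**Figure D5:**
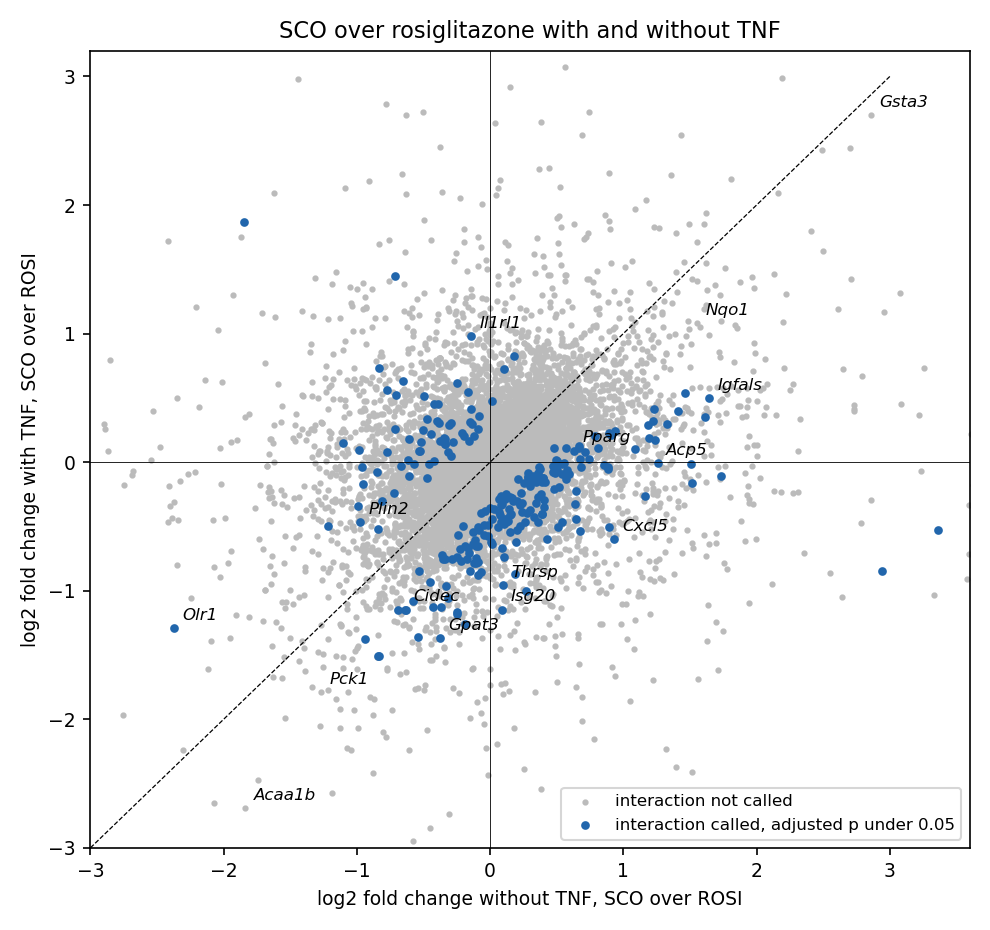
Each point is a tested gene, with its log2 fold change of SCO over ROSI without TNF on the horizontal axis and with TNF on the vertical axis, blue where the difference between the axes was called, and the dashed line marks equal values; 47 points lie outside the axes. Gsta3 and Nqo1 lie at the upper right, Acaa1b and Pck1 at the lower left, and Pparg, Cxcl5, Acp5 and Igfals to the right of the dashed line.

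The difference between these comparisons was tested itself, as an interaction with TNF. It was called for 64 genes toward higher values under TNF (0.444%) and for 184 toward lower values (1.28%). Higher genes were 25.8% of these calls, 37.8% with DESeq2 and 35.6% with no filter. Pparg had 410, 402, 369 and 438 CPM with SCO alone, against 277, 262, 219 and 290 CPM with ROSI alone, with no overlap. Its log2 difference was 0.09 with TNF and 0.63 without it (interaction -0.54; edgeR adjusted p = 0.0056). Several genes of fat storage were likewise lower relative to ROSI under TNF than without it, namely Gpat3 (interaction -0.99), Thrsp (-1.05), Clstn3 (-0.68) and Cidec (-0.51). So was the small GTPase gene Arl4a (-0.67). The droplet gene Plin2 was the reverse (0.51). It had 436 to 478 CPM with SCO alone against 822 to 1062 CPM with ROSI alone, and its log2 difference was -0.47 with TNF and -0.98 without it. Of the 12 adipocyte markers, 5 were called toward lower values under TNF, and 2 without TNF_SCO library 1 or 3, TNF_ROSI library 4 or basal_SCO library 1. The count was 3 without TNF_SCO library 4, basal_SCO library 4 or basal_ROSI library 3, and 10 with no filter.

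Among the largest interactions were genes of inflammation and secretion. Cxcl5 had 9.68, 9.78, 6.40 and 7.44 CPM with SCO alone, against 4.39, 3.97, 4.97 and 4.10 CPM with ROSI alone, and was lower with SCO under TNF (interaction -1.53; edgeR adjusted p = 1.2e-05). Acp5, tartrate-resistant acid phosphatase, had 12.1 to 14.9 CPM with SCO alone against 4.87 to 6.78 CPM with ROSI alone, and under TNF the compounds differed by -0.01 (interaction -1.27). Igfals, part of the circulating IGF complex, had 26.3 to 32.2 CPM with SCO alone against 7.81 to 10.4 CPM with ROSI alone, and it stayed higher under TNF by 0.50 (interaction -1.15). Olr1, a receptor for oxidized lipoprotein, differed by -1.29 with TNF and by -2.37 without it (interaction 1.08). For these 4 genes and for Pparg, Gpat3, Thrsp, Clstn3, Arl4a, Cidec and Plin2 the interaction stayed called in every setting run. Among the 6 largest each way and Il6, it was lost in at least 1 setting for Il1rl1 (1.12), Hr (-1.26), Gbp11 (-1.43), Isg20 (-1.24), Il6 (-3.79), Snord89 (2.17), Hist1h1e (1.57) and mt-Tc (0.98). Snord13, a small nucleolar RNA, had an interaction of 1.23. In the cell cycle list 3 of 38 genes were lower with SCO under TNF (8.64% of all genes were) and 18 without TNF (7.33% of all genes). The interaction was called for 4, all toward higher values (0.444% of all genes). This count was 9 with no filter and 3 with only the libraries compared. Among the 4, thymidine kinase Tk1 differed by -0.08 with TNF and by -0.85 without it (interaction 0.77).

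The direction of the difference was set beside the effect of TNF in vehicle cells. Of the 1246 genes lower with SCO than with ROSI, TNF had lowered 859 (68.9%) and raised 185 (14.8%), beside 27.5% and 26.7% of all tested genes. Of the 828 genes higher with SCO, TNF had raised 432 (52.2%) and lowered 168 (20.3%). These counts rest on libraries that the comparison of SCO with ROSI does not use.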

How the data were processed

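The authors deposited raw counts per gene, 1 column per library, with no normalization. Libraries were made by the QuantSeq 3' mRNA method, per the labels' protocols, so counts reflect tags near transcript ends. The submitters' processing notes list HTSeq 2.0.5, STAR 2.7.11b, limma 3.60.6, cutadapt 4.9 and R 4.4.1 and the build GRCm39, without their roles. How reads mapping to several genes were counted is not given in the sources used here. Symbols were found for 13983 of 14428 tested genes.

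The table lists 57186 genes, 28862 of them with any count, and filterByExpr by group kept 14428 for testing. The deposited counts of all 32 libraries, those with CAP7 included, entered a single quasi-likelihood fit with edgeR 4.0.16 (R 4.3.3) after TMM scaling. It had a mean for each group, 24 residual degrees of freedom and a common coefficient of biological variation of 0.1116. SE is the log2 difference over the root of F, and intervals are 95%. Differences over DMSO and between conditions came from the same fit. Same-numbered SCO and ROSI libraries with TNF deviated together with r of 0.046, -0.0075, 0.11 and 0.048. These values do not settle whether numbers pair libraries, and the main fit used no pairing. Libraries of a group differed beyond counting noise, so none was a duplicate.

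Members and the 35 gene lists were chosen with earlier results of these data known. Named are the 12 largest increases and decreases at 16 CPM or more without overlap, up to 5 called members of each list by lowest p, key genes, the 6 largest interactions each way, and up to 8 genes called in opposite directions over DMSO. Genes given or examined outside this rule (Gsta3, Txnrd1, Isg15, Ifit3b, Lpl, Hk2, and the list members Cbr1, Cbr3, Sod1, Taldo1, G6pdx, Cat, Ucp1 and Lep) were chosen after their values were seen. Some genes that the rule names are not reported here. The fit was tested on simulated data of 14428 genes, with 50 changed at each size in SCO with TNF, 14228 unchanged and otherwise a shared mean for all groups. For SCO against ROSI with TNF, recovery was 18% at a 1.25-fold change, 56% at 1.5-fold, 74% at 2-fold and 84% at 4-fold, and 7 unchanged genes were called. The interaction's recovery was 4%, 32%, 64% and 64% at these sizes, and 5 unchanged genes were called. Fewer genes were changed than the real comparison called, so its recovery may differ. Alternatives were RLE factors, library sizes alone, no filter, a stricter filter of 5 CPM in 4 libraries, DESeq2 1.42.0, limma-voom 3.58.1, a replicate block, only the libraries compared, no mitochondrially encoded genes, and each library left out. Promoter windows of 250 bases came from RefSeq tables of GRCm38.p6, and no coordinates of the files' build are printed.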

Additional observations from a re-analysis of the deposited data

Results flagged for a closer look

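The genes named by the size of their difference or interaction, by opposite calls over DMSO, by a fixed list of key genes or outside the rule (85 genes) were examined. The search was for a library far from the other 3 of its group, and 7 of 170 groups held one, where chance gives about 5%. The measure is the gap between the distant library and its nearest neighbour over the range of the group, set against Dixon's critical value. In SCO libraries with TNF it was 0.9187 for Acaa1b (library 2, low), 0.9133 for Scd1 (library 1, low), 0.8714 for Acp5 (library 4, low) and 0.8525 for Gbp11 (library 1, high). In ROSI libraries with TNF it was 0.8698 for Ccl6 (library 2, high), 0.8758 for Tmtc4 (library 1, low) and 0.9154 for Cfd (library 3, low).

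The log2 difference of SCO from ROSI differed with and without TNF, by edgeR's test of the interaction, in 27 of the 85 genes, 8 toward higher and 19 toward lower values under TNF. The 85 include the 6 largest called interactions each way, whose calls were thus fixed by the choice. Over all tested genes 0.444% were called toward higher and 1.28% toward lower values. Toward higher values these were Snord89 (2.17), Hist1h1e (1.57), Snord13 (1.23), Il1rl1 (1.12), Olr1 (1.08), mt-Tc (0.98), Tk1 (0.77) and Plin2 (0.51). Toward lower values, genes of fat storage and adipocyte identity were Thrsp (-1.05), Gpat3 (-0.99), Pdk4 (-0.82), Clstn3 (-0.68), Arl4a (-0.67), Retn (-0.58), Pparg (-0.54), Cidec (-0.51), Lpl (-0.46), Arxes2 (-0.44) and Plin1 (-0.34). Genes of inflammation, matrix and secretion were Il6 (-3.79), Cxcl5 (-1.53), Gbp11 (-1.43), Acp5 (-1.27), Isg20 (-1.24), Igfals (-1.15) and Col4a1 (-0.32). The last of the 19 were Hr (-1.26), a nuclear corepressor, and the small GTPase gene Arl4a (-0.67). Over the 25 settings run, the call was lost in 18 for Arxes2, 17 for Isg20, 15 for Retn, 12 for Gbp11, 10 for Col4a1 and Hist1h1e, 7 for Lpl, 6 for Plin1 and Snord89, 3 for Pdk4 and Il1rl1 and 1 for Hr, and over 24 in 10 for mt-Tc and 6 for Il6.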

How the results depend on the processing

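With library sizes alone 1782 genes were higher with SCO under TNF, and without TNF 1710 were higher and 665 lower. The tightest bound tried held 3857 genes and the widest, 2-fold, 10889. For the interaction, 148 genes were higher with DESeq2, 170 with no filter and 38 with only the libraries compared, and 307 were lower with no filter. Leaving out 1 library gave 530 to 865 genes higher under TNF, the lowest without TNF_ROSI library 4, and interactions of 25 to 87 higher and 95 to 213 lower. The interaction count toward higher values was 25 without TNF_ROSI library 4, 38 without TNF_ROSI library 1, 42 without TNF_SCO library 3, 40 without basal_ROSI library 3 and 31 without basal_SCO library 4. The count toward lower values was 95 without TNF_SCO library 3, 101 without TNF_ROSI library 4, 106 without basal_SCO library 1, 113 without TNF_SCO library 1 and 116 without TNF_SCO library 4. With the replicate block, 852 genes were higher and 1284 lower under TNF, 1093 and 1086 without TNF, and 69 and 192 for the interaction. The labels do not say whether the numbers pair the libraries. Of the SCO libraries, 3 of the 4 with TNF and all 4 without it correlated best with the ROSI library of their own number. This is a hint of pairing from the data only. Over the named genes and these settings, 7809 values stayed on their side of the threshold, 290 lost the call and 121 gained one; no called value changed sign, while values near 0 that were not called did in some settings. Of lists in which no gene rose, glycolysis and adipogenic transcription factors had 1 higher and the TCA cycle 2 with library sizes alone, and lipolysis and brown and beige genes had 1 with no filter or without TNF_ROSI library 4. Of lists in which 1 gene rose, branched-chain, cholesterol and unfolded protein genes had 2 with library sizes alone, the last also with no filter or without TNF_SCO library 1, acute phase genes 2 with limma-voom or only the libraries compared, and zinc genes 2 with only the libraries compared. With 4 CPM in place of 16 as the minimum, 7 of the 12 largest increases and 8 of the 12 largest decreases were shared. The limits are 4 libraries a group, unstated doses, a single time of 24 h, 3' tags that cannot separate near-identical copies, and promoter windows from another build than the counts.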

Other observations

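Several further lists were compared between SCO and ROSI under TNF, where 14.4% of all genes were called in either direction. Of 5 tested aryl hydrocarbon receptor targets 2 rose with SCO, Nqo1 (1.08) and Cyp1b1 (0.25), the last a call lost with only the libraries compared and without TNF_ROSI library 3 or TNF_SCO library 1 (edgeR adjusted p 0.0691 to 0.151). Of 7 metallothioneins and zinc transporters Slc39a14, a zinc and iron importer, rose (0.41 ± 0.09), and of 19 circadian clock genes Per3 rose (0.53 ± 0.15), with 5 clock genes higher with library sizes alone and 2 without TNF_ROSI library 2 or 4 or TNF_SCO library 1 or 4. Of 22 xenobiotic and retinoid enzymes 3 rose, 5 with library sizes alone, and 4 fell. Cyp2f2, a cytochrome P450, had 55.9, 54.5, 48.8 and 47.1 CPM with SCO, against 37.0, 33.4, 30.2 and 42.1 CPM with ROSI, and Retsat, a retinol saturase, had 192, 209, 187 and 184 CPM with SCO, against 358, 314, 335 and 383 CPM with ROSI. Neither gene's groups overlapped. Of 18 preadipocyte and fibroblast markers 3 rose and 1 fell, with Pdgfrb at 0.41 ± 0.11. The lower call, Col1a1, was lost with library sizes alone and with only the libraries compared. It was also lost without TNF_ROSI library 1 or 4 or TNF_SCO library 2, 3 or 4. Of 6 tested macrophage and leukocyte markers 1 fell, S100a8 (-0.39 ± 0.13), which was not called with DESeq2, with library sizes alone or without any of 5 single libraries, and the 3 tested endothelial and mural markers were not called by edgeR, namely Pecam1 (2.84-fold higher, log2 SE 0.67, unadjusted p = 0.032, at a mean of 0.524 CPM with SCO and 0.156 CPM with ROSI), Myh11 (0.17 ± 0.25) and Des (0.03 ± 0.14).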
